A study of Rattus norvegicus with 19 samples.

Results

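The lowest dose of DE-71 was compared with vehicle in the liver of Wistar Han rats on postnatal day 4. DE-71 is a commercial mixture of pentabromodiphenyl ethers that was used as a flame retardant. All 5 arrays labelled 0.1 mg/kg and all 5 vehicle arrays were taken, which is 10 of the 19 arrays of the series. The other groups are 15 mg/kg (4 arrays) and 50 mg/kg (5 arrays). Per the labels, timed-mated dams of 11 to 12 weeks were gavaged each day from gestation day 6 to postnatal day 4 with 5 mL/kg of corn oil. The oil held 0.02 mg/mL of DE-71 in the 0.1 mg/kg group and none in the vehicle group. All groups share the oil, the gavage, the diet and the strain. RNA was taken from the left lateral lobe of the liver, and 100 ng of it was amplified for Affymetrix Rat230_2 arrays. The values are log2 signals, so a difference of 1 is a 2-fold difference. The comparison covered 31042 probe sets, which stand for 14217 genes with a symbol of their own.

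Whether pups or dams were sampled is not in the labels, and neither is whether each array had an animal or litter of its own. The p-values therefore measure only the spread between these arrays. Transcripts of hepatocytes, the main cells of the liver, averaged 14.20 to 14.27 on the 10 arrays (9 of 10 listed markers measured). That is near the top of the signal range (highest value 15.06), where differences are compressed, so equal hepatocyte content is not shown. The fetal plasma protein alpha-fetoprotein (Afp) stood between 14.56 and 14.66, next to albumin (Alb, 15.03 to 15.06). The labels give the sex as female. On all 10 arrays Eif2s3y (9.55 to 10.07) and Uty (9.46 to 9.85), both Y-linked, were high. Xist, the RNA that coats a silenced X, read 3.88 to 4.29. These levels go against the label.

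The liver reads foreign chemicals through a small set of receptors. The aryl hydrocarbon receptor (AhR) binds planar aromatic compounds, pairs with Arnt and switches on Cyp1a1, Cyp1a2, Cyp1b1 and Nqo1 through a short DNA motif. The constitutive androstane receptor (CAR, gene Nr1i3) and the pregnane X receptor (PXR, gene Nr1i2) switch on cytochromes P450 of the 2b, 2c and 3a families, conjugating enzymes and efflux pumps. NRF2 drives genes of glutathione and quinone detoxification. Some of the induced conjugating enzymes also clear thyroxine, for which brominated diphenyl ethers are studied.

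Several arrays stood apart before any comparison was made. The library labelled 0.1 mg/kg replicate 1 read 14.06 in Cyp1a1, a monooxygenase of aromatic hydrocarbons that is nearly silent without an inducer, while the other 4 arrays of its group read 7.19 to 8.42. The arrays labelled 0.1 mg/kg replicate 2 and vehicle replicate 2 were almost copies of each other. Their probe sets differed with an SD of 0.128, against 0.197 for the next closest of 171 pairs of arrays and 0.385 for the median pair. A single probe set (0.00322%) differed over 2-fold between them, against 78 in the next closest pair. Both carried transcripts of kidney (list means of 9.08 and 9.13, against 4.17 to 4.35 on the other 8 arrays), of exocrine pancreas (8.12 and 8.10) and of bile duct (8.06 and 8.05). Vehicle replicates 1 and 5 carried skeletal muscle transcripts (10.91 and 8.86, against 4.82 to 5.65 on the other 8 arrays), and vehicle replicate 4 some pancreas transcripts (7.02). The part of these arrays in the results was not tested, so the comparison was also made without replicate 1 of the dosed group, without both replicate 2 arrays and without all 3. Replicate 1 is doubted for its own values in Cyp1a1 and other induced genes, so for those genes a result without it follows in part from that choice.

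**Figure D1:**
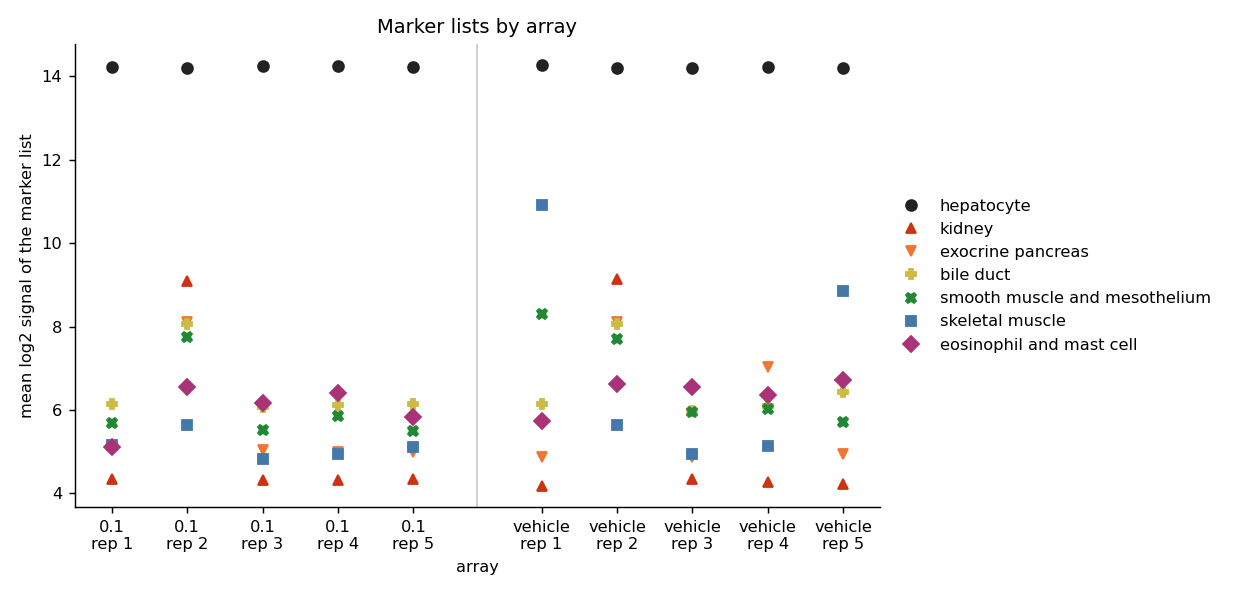
Each symbol is the mean log2 signal of a list of marker transcripts (vertical axis) on 1 array (horizontal axis; 0.1 stands for 0.1 mg/kg, rep for replicate). Hepatocyte transcripts lie at 14.20 to 14.27, near the top of the signal range, where differences are compressed. Kidney transcripts stand out on replicate 2 of both groups, and skeletal muscle transcripts on vehicle replicates 1 and 5.

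No transcript passed the test at 0.1 mg/kg. In limma, after adjustment by Benjamini and Hochberg over the whole array, 0 of 31042 probe sets (0%) had an adjusted p under 0.05. An unadjusted p under 0.05 was found for 763 (2.46%), of which 565 were higher (1.82%) and 198 lower (0.638%). In bins of width 0.05, the p-values above 0.05 numbered 1264 to 1703 per bin, so the lowest bin held the fewest. An unadjusted p under 0.05 of a gene named below is thus no evidence of a difference by itself. Without the library labelled 0.1 mg/kg replicate 1 the limma counts were 0 and 511 (1.65%). Without both replicate 2 arrays they were 0 and 1768 (5.70%), and without all 3 arrays 0 and 1324 (4.27%). The adjusted count was 0 in all 25 alternatives, and the smallest adjusted p in any of them was 0.502, without 0.1 mg/kg replicate 2. The unadjusted count was 3065 without that array, 1370 without vehicle replicate 3 and 453 without 0.1 mg/kg replicate 5. Albumin, Afp, transthyretin (Ttr), Cyp7a1 and Dio1 are among the genes that did not pass, and so are all cytochromes P450.

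The arrays bounded the differences as follows. The median standard error (SE) of a difference was 0.106, and the median half-width of a 95% confidence interval was 0.222. The interval lay within 2-fold in either direction for 29841 probe sets (96.1%) and within 1.5-fold for 27368 (88.2%). The share within 1.5-fold was 87% without both replicate 2 arrays and 85.1% without all 3 doubted arrays. The limit was wider for genes that vary between arrays of a group. For Cyp1a1 the interval ran from -0.39 to 3.24, and for albumin from -0.07 to 0.09. Albumin lies at the top of the signal range (highest value 15.06), where differences are compressed. They are also compressed near the floor, and 34.7% of all probe sets had a mean level under 5. A narrow interval near either end bounds the signal and may not bound the transcript. These intervals are for 1 probe set each and are not adjusted for the number of probe sets.

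**Figure D2:**
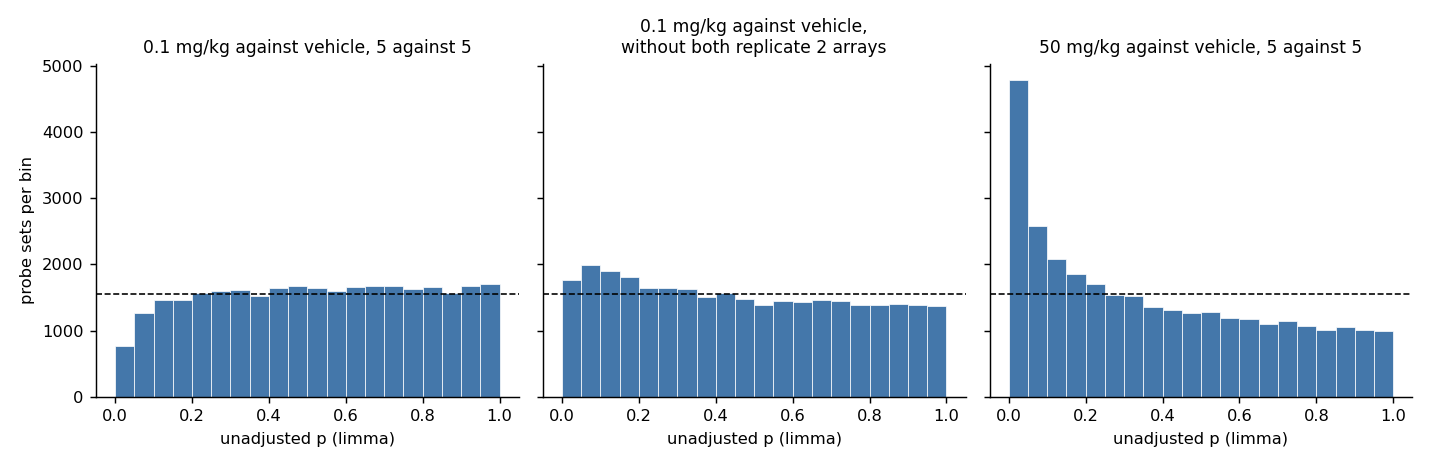
Numbers of probe sets (vertical axis) in bins of limma's unadjusted p (horizontal axis, bin width 0.05), with the mean per bin dashed. The lowest bin holds 763 probe sets for 0.1 mg/kg against vehicle, 1768 without both replicate 2 arrays and 4791 for 50 mg/kg against vehicle.

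Among AhR targets, Cyp1a1 read 14.06, 7.19, 8.24, 7.64 and 8.42 on replicates 1 to 5 at 0.1 mg/kg and 7.10, 7.57, 7.97, 7.43 and 8.36 in vehicle. Only replicate 1 of the dosed group left the vehicle range upwards by more than 0.1, and the groups overlapped. The means were 9.11 ± 2.81 and 7.69 ± 0.491 (SD, n = 5 each). The difference of 1.42 had a p of 0.286 in a two-sided exact permutation test over 252 splits, whose smallest possible p is 0.00794. Without that library the difference was 0.19 (exact permutation p = 0.595, 126 splits). Without both replicate 2 arrays it was 1.88 (exact permutation p = 0.171), and without all 3 it was 0.39 (exact permutation p = 0.343).

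Cyp1a2, which oxidises aromatic amines and caffeine, read 13.80, 7.63, 8.82, 7.68 and 8.83 at 0.1 mg/kg and 7.94, 7.64, 8.66, 8.34 and 8.98 in vehicle. Again 1 array set the difference of 1.04, which turned to -0.07 without it. Cyp1b1, which oxidises steroids and polycyclic hydrocarbons, read 9.19, 7.60, 5.79, 6.26 and 6.10 against 6.92, 7.56, 5.90, 6.34 and 5.70 (difference 0.50, and -0.05 without replicate 1). Both replicate 2 arrays were above the other arrays of their groups in Cyp1b1 apart from replicate 1 of the dosed group.

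Nqo1, a quinone reductase that both AhR and NRF2 induce, had another pattern across the arrays than the Cyp1 genes. It read 10.64, 8.55, 8.55, 8.70 and 8.75 at 0.1 mg/kg and 8.13, 8.55, 8.15, 8.16 and 8.12 in vehicle. The dosed arrays lay above the vehicle arrays apart from vehicle replicate 2, which read as its near copy in the dosed group did. The difference was 0.81 (SE 0.368, limma unadjusted p = 0.04, adjusted p = 1) and 0.41 without replicate 1 (limma unadjusted p = 0.15). Without both replicate 2 arrays the groups did not overlap (difference 1.02, limma unadjusted p = 0.0262), as held for 299 of 14217 genes on the higher side (2.10%). Without all 3 arrays the difference was 0.52 (limma unadjusted p = 0.123). Nqo1 kept its direction in all 25 alternatives, with differences from 0.39 to 1.02 and adjusted p-values from 0.502 to 1.

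**Figure D3:**
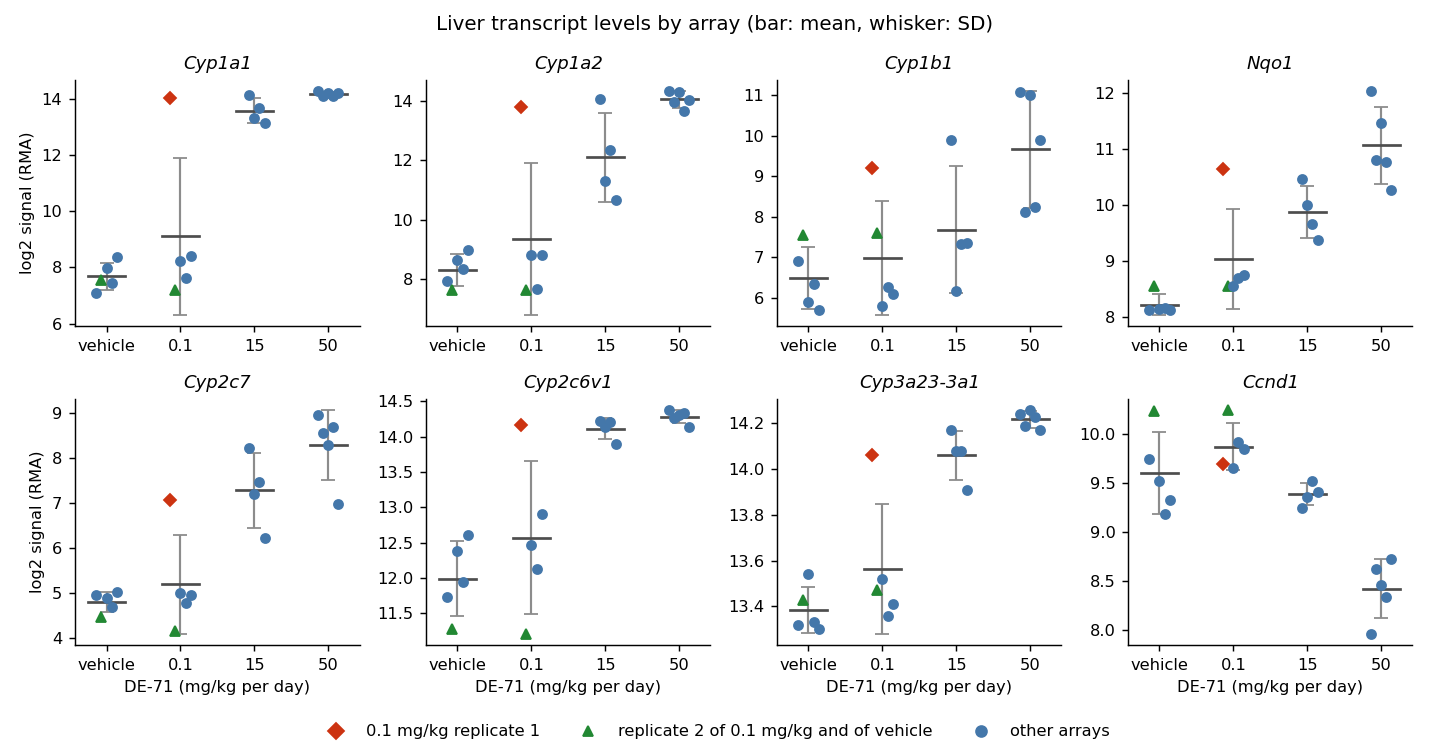
Log2 signal (vertical axis, not starting at 0) of 8 transcripts on each of the 19 arrays, by dose of DE-71 in mg/kg per day (horizontal axis), with the group mean as a bar and the SD as a whisker. The library labelled 0.1 mg/kg replicate 1 (red diamond) lies with the 15 and 50 mg/kg arrays in Cyp1a1 (14.06) and apart from the other 4 arrays of its group in the other induced transcripts, and both replicate 2 arrays (green triangles) lie side by side.

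The AhR and Arnt bind a motif with the core letters GCGTG, read on either strand. The promoters of Cyp1b1 and Nqo1 are shown because both hold the core while their values differ in pattern across the arrays. They are the 250 bases before the RefSeq start site in the GRCr8 build, on the strand of the gene, with the core in capitals. Cyp1b1 lies at chr6:21094315-21094564 on the plus strand and holds 2 matches. Nqo1 lies at chr19:52220268-52220517 on the minus strand and holds 1.
Cyp1b1: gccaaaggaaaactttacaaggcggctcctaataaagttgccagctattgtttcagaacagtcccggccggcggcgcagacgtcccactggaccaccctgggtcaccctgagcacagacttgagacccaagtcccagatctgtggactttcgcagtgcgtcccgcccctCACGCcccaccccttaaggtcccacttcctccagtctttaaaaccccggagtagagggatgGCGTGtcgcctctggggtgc
Nqo1: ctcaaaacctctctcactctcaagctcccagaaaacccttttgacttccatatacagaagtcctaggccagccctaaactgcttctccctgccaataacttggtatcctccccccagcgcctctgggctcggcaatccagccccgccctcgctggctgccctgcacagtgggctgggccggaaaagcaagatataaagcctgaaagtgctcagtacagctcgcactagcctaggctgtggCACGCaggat
Of 10 listed AhR targets 8 had a promoter entry, and 7 of these held the core. It was also found in 25.9% of all 33469 promoters of that length, counted with overlaps on both strands. Cyp1a2 had no match in this window. A match is only a run of letters and was not tested as a binding site.

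Over the AhR targets, 8 of 10 were measured, and all 8 were higher at 0.1 mg/kg on the mean (7826 of all 14217 genes were). Their median difference was 0.33 beside 0.01 for all genes, and 0.06 without the library labelled 0.1 mg/kg replicate 1. None passed (0%), and Nqo1 alone had an unadjusted p under 0.05, as had 281 of all 14217 genes (1.98%). The receptor itself, Ahr, read 7.11, 4.80, 6.30, 6.68 and 6.50 against 5.92, 4.76, 6.13, 6.72 and 6.26 (difference 0.32). The low value on replicate 2 of both groups lies apart. Its partner Arnt differed by 0.17 and the 5 measured genes of the receptor complex by 0.13 in the median, with none passing.

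Among 21 measured targets of CAR and PXR, the library labelled 0.1 mg/kg replicate 1 was the highest array of its group in 16. Cyp2c6v1, an abundant hepatic P450, read 14.16, 11.21, 12.46, 12.13 and 12.90 against 11.73, 11.28, 12.38, 11.95 and 12.61 (difference 0.58, and 0.18 without replicate 1). Cyp2c7 read 7.06, 4.17, 5.00, 4.79 and 4.95 against 4.95, 4.47, 4.90, 4.70 and 5.03 (0.38, and -0.08 without it). In both genes replicate 1 of the dosed group was the highest array and the other 4 lay in or near the vehicle range. Cyp2a3, a P450 that oxidises small aromatic compounds, read 9.01, 5.10, 6.13, 6.27 and 7.51 against 6.48, 4.98, 6.05, 5.99 and 6.62 (0.78, and 0.23 without it). Here replicate 5 of the dosed group was above the vehicle range as well.

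Cyp3a23-3a1, the main PXR-induced P450 of the rat, read 14.06, 13.47, 13.52, 13.36 and 13.41 against 13.32, 13.43, 13.54, 13.33 and 13.30. Without replicate 1 the means were 13.44 ± 0.0694 (SD, n = 4) and 13.38 ± 0.0988 (SD, n = 5), and the 95% interval of the difference ran from -0.08 to 0.19. The basolateral efflux pump Abcc3 differed by 0.43 (0.11 without replicate 1), the canalicular pump Abcc2 by 0.25 (0.17) and the carboxylesterase Ces2c by 0.39 (0.14). Of 21 measured CAR and PXR targets 19 were higher on the mean, with a median of 0.24, which came to 0.11 without replicate 1 and to 0.06 without all 3 arrays. None passed, and Ugt2b1 alone had an unadjusted p under 0.05. The receptors Nr1i2 (PXR, 0.20) and Nr1i3 (CAR, 0.14) did not pass, nor did Ppara (-0.18), the fatty acid receptor.

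Conjugating enzymes, which attach glucuronic acid, sulfate or glutathione, differed by 0.16 in the median (18 of 19 measured members higher on the mean), and by 0.04 without replicate 1. Ugt2b15, a glucuronosyltransferase of steroids, read 11.89, 11.34, 11.25, 11.23 and 11.78 against 11.32, 11.19, 11.03, 10.81 and 11.09. Its dosed arrays mostly lay above the vehicle arrays, and vehicle replicate 1 lay among them. The difference of 0.41 (SE 0.147, limma unadjusted p = 0.0116, adjusted p = 1) was 0.31 without replicate 1 and 0.36 without all 3 arrays. Ugt2b1 read 13.73, 12.85, 12.99, 12.67 and 13.16 against 12.93, 12.86, 12.85, 12.68 and 12.56 (difference 0.31, and 0.15 without replicate 1). Its groups overlapped. These were the 2 of 19 members with an unadjusted p under 0.05, beside 1.98% of all genes. The sulfotransferase Sult1c3 differed by 0.37 and the glutathione transferase Gstm1 by 0.27 (0.04 without replicate 1).

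Of 25 measured NRF2 targets and glutathione enzymes, 17 were higher on the mean, with a median of 0.06 (0 without replicate 1). Glutathione reductase (Gsr) read 9.21 on replicate 1 and 8.15 to 8.47 on the other dosed arrays, against 7.84 to 8.54 in vehicle. Hepatic transporters differed by 0.12 in the median (19 of 20 higher on the mean) and by 0.11 without replicate 1. The drug efflux pump Abcb1a (0.43, and 0.26 without replicate 1) and the sterol transporter subunit Abcg8 (0.29) were among the members that differed most. None of either group passed.

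**Figure D4:**
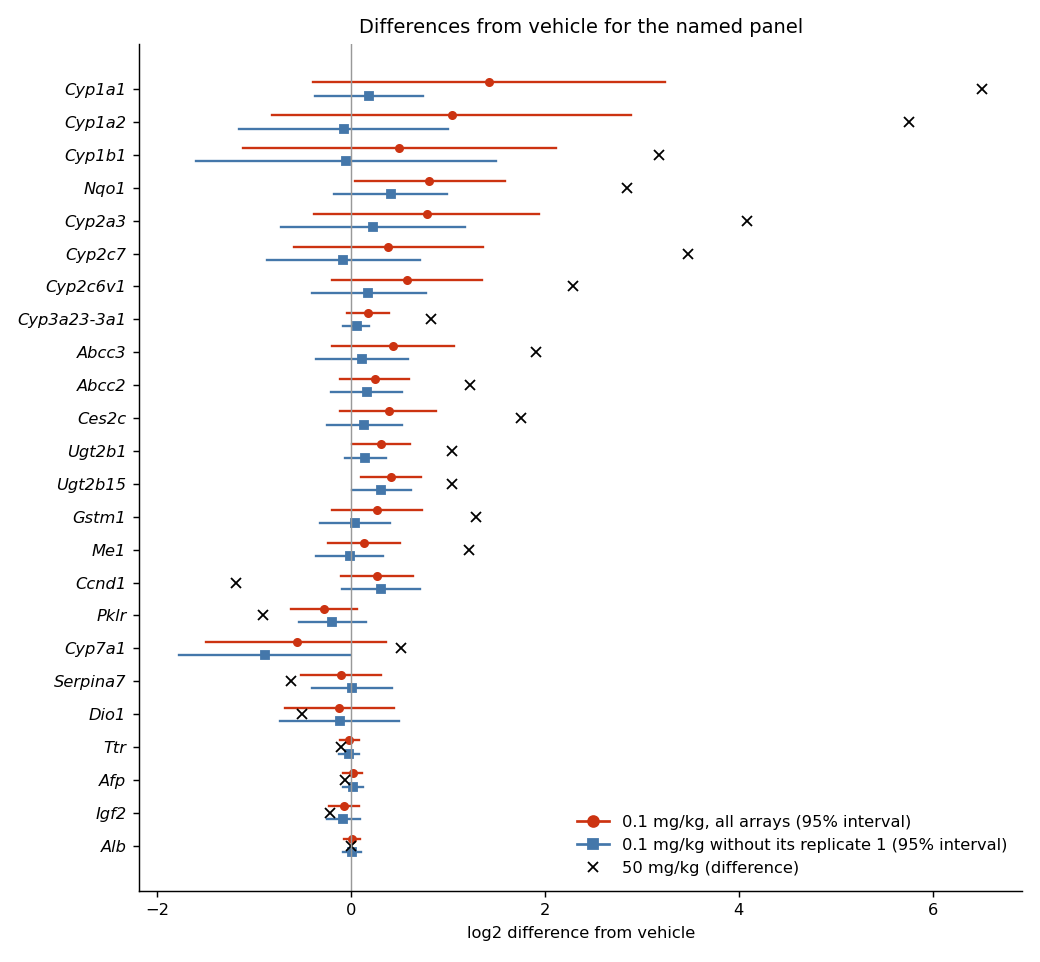
Log2 difference from vehicle (horizontal axis) for 24 named transcripts, with limma's 95% interval for 0.1 mg/kg over all arrays (red circles) and without the library labelled 0.1 mg/kg replicate 1 (blue squares), and the difference at 50 mg/kg as a cross. Without that library the Cyp1a1 estimate goes from 1.42 to 0.19, while the cross stands at 6.51; both doses are set against the same vehicle arrays.

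Thyroid hormone genes differed little. Of 20 measured carriers, deiodinases and responders 11 were higher and 9 lower on the mean, with a median of 0.01. The plasma carrier Ttr read 14.51 to 14.53 at 0.1 mg/kg and 14.50 to 14.58 in vehicle, with a 95% interval of the difference from -0.11 to 0.08. These levels lie near the top of the signal range, where differences are compressed. The deiodinase Dio1 read 6.49, 6.08, 6.66, 6.45 and 6.79 against 6.75, 5.92, 7.28, 6.52 and 6.56 (difference -0.12). Its groups overlapped throughout. Thyroxine-binding globulin (Serpina7) differed by -0.10, with both replicate 2 arrays lowest (12.04 and 12.06). Iyd, which recovers iodide from iodinated tyrosines, was 0.39 higher (limma unadjusted p = 0.0786), and the responders Thrsp and Me1 differed by 0.24 and 0.14.

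Growth hormone and prolactin signalling had a median of -0.03 over 19 genes. The prolactin receptor Prlr differed by -0.33, with vehicle replicate 5 (10.25) and replicate 1 of the dosed group (8.04) at the ends. Stat5b, which carries the growth hormone signal to the nucleus, was 0.27 higher (limma unadjusted p = 0.0321) and the feedback inhibitor Socs2 0.32. Of 20 genes that differ between the sexes in adult liver, 15 were higher, with a median of 0.09. Among these, the transporter Ust5r read 6.58, 6.43, 5.57, 5.82 and 5.83 against 4.95, 6.62, 5.35, 5.52 and 4.95 (difference 0.57, limma unadjusted p = 0.0501). Vehicle replicate 2 was the highest of the 10 arrays, and the other vehicle arrays lay below the dosed ones.

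Transcript lists of lipid metabolism had small median differences, while some single genes differed more. Lipogenesis had a median of 0.03 over 22 genes, cholesterol synthesis 0.09 over 19, bile acid synthesis 0.03 over 16 and fatty acid oxidation -0.04 over 25, with 0 passing in each. Lpin1, a phosphatidate phosphatase, read 10.18 on replicate 5 of the dosed group and 7.89 to 8.81 on the other 9 arrays (difference 0.45). Insig1, which holds back sterol synthesis, was highest there too (11.77, difference 0.36). Pyruvate kinase Pklr differed by -0.28.

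Cyp7a1, the rate-limiting enzyme of bile acid synthesis, read 8.82, 6.49, 7.23, 8.20 and 6.80 at 0.1 mg/kg and 8.59, 6.51, 8.04, 8.63 and 8.58 in vehicle. Replicate 1 was the highest of the dosed arrays and replicate 2 the lowest in both groups. The difference was -0.56 over all arrays (limma unadjusted p = 0.217), -0.89 without replicate 1 (0.0472) and -1.05 without all 3 arrays (0.00564). The 3 arrays left out are the highest and the lowest of the dosed group and the lowest of vehicle. The larger differences thus follow in part from the choice of arrays. Cyp7a1 did not pass after adjustment in any alternative. Fgf21, a fasting hormone of the liver, read 7.62, 8.01, 8.48, 10.18 and 6.96 against 8.50, 8.09, 10.27, 10.97 and 6.56 (difference -0.63), and the thioesterase Acot1 read 8.31 to 11.53 against 7.38 to 11.52. In both genes the arrays of a group were spread over several-fold and the groups overlapped. Tat, an amino acid-degrading enzyme that comes on after birth, had a difference of 0.24 with the same kind of spread (8.90 to 10.96 against 8.80 to 11.69).

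Genes of the maturing hepatocyte stood at a median of 0.01 over 21. Afp differed by 0.02, Igf2, a fetal growth factor, by -0.07 and albumin by 0.01. Afp and albumin lie near the top of the signal range, where differences are compressed. Dlk1, a marker of fetal liver progenitors, differed by -0.71, with vehicle replicate 1 at 9.62 and the other 9 arrays at 6.01 to 7.39. Dlk1 is also made in developing muscle, and vehicle replicate 1 is the array with the highest muscle transcripts. The part of muscle in the Dlk1 value was not tested. Cell cycle genes had a median of -0.04 over 37. The G1 cyclin Ccnd1 read 9.70, 10.25, 9.65, 9.92 and 9.85 against 9.75, 10.24, 9.52, 9.18 and 9.33 (0.27), with groups that overlapped.

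Of 26 interferon-induced genes 21 were higher on the mean (median 0.15, and 0.13 without replicate 1), while Ifit1, an antiviral RNA-binding protein, differed by -0.51 (limma unadjusted p = 0.0866). Over 26 genes of the unfolded protein response the median was 0.07, and over 22 acute phase genes 0.01. Chac1 and Trib3, targets of the stress factor Atf4, differed by -0.47 and 0.36, with replicate 4 of both groups highest. The clock genes Per2 (-0.33), Bmal1 (0.28) and Nr1d1 (0.25) did not pass, and 17 clock genes had a median of 0.03. Junb, an early-response transcription factor, read 7.74, 7.24, 7.91, 7.88 and 7.72 against 7.36, 7.25, 7.22, 7.41 and 7.45 (difference 0.36, limma unadjusted p = 0.0177, adjusted p = 1). All dosed arrays but replicate 2 lay above the vehicle arrays.

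Of the 100 probe sets with the smallest unadjusted p, 59 had a mean level under 5, near the floor of the signal range, as had 34.7% of all probe sets. Il10, an anti-inflammatory cytokine, read 3.77, 3.48, 3.52, 3.69 and 3.98 at 0.1 mg/kg and 3.34, 3.24, 3.33, 3.29 and 3.49 in vehicle (difference 0.35, SE 0.0899, limma unadjusted p = 0.00111, adjusted p = 1). Replicate 2 of the dosed group and vehicle replicate 5 overlapped by 0.01. Hmga2, a chromatin protein of growing tissue, read 4.21, 3.99, 4.22, 4.22 and 3.99 against 3.91, 3.83, 3.93, 3.95 and 3.62 (0.27, limma unadjusted p = 0.00209, adjusted p = 1). The Hmga2 groups did not overlap.

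Plxna4, a semaphorin receptor, was the gene with the smallest p on the lower side. It read 5.90, 6.29, 6.09, 6.11 and 5.78 against 6.43, 6.23, 6.30, 6.24 and 6.46 (-0.30, limma unadjusted p = 0.00246, adjusted p = 1), with groups that overlapped. Of the other genes among the 10 smallest, Srarp (0.32), the guanine nucleotide exchange factor Rapgef1 (0.33), the cadherin Cdh7 (0.25), LOC102554959 (0.21), Ropn1l (0.24) and LOC102550246 (0.39) were higher and Cma1 (-0.77) was lower. Without both replicate 2 arrays Plxna4, Acsm5, Ascl2, Cma1 and Srarp had the smallest p. Acsm5, a mitochondrial acyl-CoA synthetase, read 7.70, 7.45, 6.40, 6.87 and 7.56 against 6.14, 7.64, 5.66, 5.85 and 6.13. Its difference was 0.91 over all arrays and 1.18 without both replicate 2 arrays, when the groups no longer overlapped. Without replicate 1 the 5 smallest were Ropn1l, Il10, Lilrb2, LOC102554959 and Fancl.

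The groups did not overlap at all for 15 genes that were higher (0.106%) and 4 that were lower (0.0281%). Shuffled labels of 5 against 5 arrays would separate a gene in this way, on either side, with a probability of 0.00794. The shares found lie below that. The 4 lower genes were named after their values were seen. They were Sftpc (-1.16), Clca2 (-0.44), Mfsd14a (-0.15) and Cep85 (-0.14). Sftpc, a surfactant protein of the lung, read 3.55 to 3.69 at 0.1 mg/kg and 3.73 to 8.75 in vehicle.

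Differences over 2-fold were nearly all on the lower side. They numbered 130 probe sets, 4 higher and 126 lower, none of which passed. In 124 of these 126, vehicle replicate 1 was the highest of the 10 arrays, and the genes included 12 of 16 measured skeletal muscle markers. Differences over 2-fold numbered 202 without both replicate 2 arrays (8 higher, 194 lower). They numbered 211 without all 3 doubted arrays (7 higher, 204 lower). Acta1, the actin of skeletal muscle, read 4.23, 6.20, 3.24, 3.52 and 4.32 at 0.1 mg/kg and 13.70, 5.94, 3.48, 4.40 and 12.53 in vehicle. The 3 vehicle arrays with low values lay within the dosed range. The muscle list had a median difference of -2.23, the list of stellate cell and matrix genes -0.42 and that of smooth muscle and mesothelium -0.61. The stellate list was highest on vehicle replicates 1 and 5 (10.49 and 9.77), the arrays with muscle transcripts. Of its 14 members 13 were lower and 1, Lrat, was higher (0.07). The amount of a cell type or tissue in a sample and the RNA per cell cannot be told apart here.

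Of the cell type markers, only 3 mast cell transcripts were lower at an unadjusted p under 0.05. These were Cma1, Mcpt1l1 and Cpa3, proteases of mast cell granules, in a list of 8 measured genes (92 of all 14217 genes, 0.647%, were on that side). Cma1 read 4.54, 5.41, 4.55, 5.18 and 4.15 against 6.22, 5.23, 5.41, 5.17 and 5.65. The difference was -0.77 (SE 0.233, limma unadjusted p = 0.00405, adjusted p = 1) and -0.99 without all 3 arrays. Mcpt1l1 read 4.77, 5.82, 4.70, 5.56 and 4.26 against 6.25, 5.96, 5.23, 5.66 and 5.86. Cpa3 read 6.61, 6.97, 6.41, 7.19 and 6.17 against 7.93, 7.04, 6.98, 6.88 and 7.15 (-0.52). In all of these genes replicates 1, 3 and 5 of the dosed group were below every vehicle array, while replicates 2 and 4 lay among them. Vehicle replicate 1, the array with the most muscle transcripts, was the highest of the 10 in each. Without it the difference was -0.60 for Cma1 and -0.34 for Cpa3, and the part of that array in the result was not tested further. Kit and Tpsab1, other mast cell markers of the list, did not share the pattern. Kit was 0.07 higher, and Tpsab1 read 5.70 to 6.37 at 0.1 mg/kg and 5.83 to 6.20 in vehicle. The mast cell protease Mcpt10 read 4.56, 4.67, 5.21, 4.69 and 4.31 against 4.87, 4.99, 5.64, 4.53 and 4.95, with groups that overlapped. Of the 8 measured members of the list, 7 were lower on the mean.

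Eosinophil transcripts were low on replicate 1 of both groups. The eosinophil granule proteins Prg2 and Epx read 5.86 and 4.79 on replicate 1 at 0.1 mg/kg and 5.89 and 4.94 on vehicle replicate 1. On the other 8 arrays Prg2 read 9.67 to 11.03 and Epx 8.32 to 9.49. These 2 arrays bear the numbers 1 and 6 in the array names, while the other 8 bear numbers from 9 to 20. Other arrays with low numbers were low as well. Prg2 and Epx read 5.84 and 4.11 on replicate 2 at 15 mg/kg, 6.25 and 4.64 on replicate 3 and 6.61 and 5.34 on replicate 4 at 50 mg/kg. Replicates 1 and 2 at 50 mg/kg, also of low number, read 8.59 and 7.84 in Prg2. Replicate 5 at 50 mg/kg, which bears the number 18, read 8.83 in Prg2 and 7.41 in Epx. The parts of array number and of dose in these values were not tested. Of 10 T and NK cell transcripts 9 were higher on the mean (median 0.11). Of 10 neutrophil transcripts all 10 were lower on the mean (median -0.22), as were 11 of 14 exocrine pancreas transcripts (-0.34) and 9 of 10 erythroid ones (-0.10), beside 6391 of all 14217 genes. Without the library labelled 0.1 mg/kg replicate 1 these medians were -0.15, -0.16 and -0.08. The Kupffer cell and endothelial lists had medians of 0.04 and 0.01, and none of these members passed.

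The library labelled 0.1 mg/kg replicate 1 was then set against the other 4 arrays of its group, as a description with no test. Its highest genes relative to their median were Cyp1a1, Cyp1a2, the early-response gene Fos, Cyp1b1, Cyp2a3, Poteml2, Tsku, Gadl1, Cyp2c7, Nqo1, Cyp2c12, Ugt2b10, Cyp2c6v1, Sult1b1 and Cyp7a1. Of these 15 genes, 8 are P450s, Nqo1 is a reductase, and Ugt2b10 and Sult1b1 are conjugating enzymes. Fos read 9.05, with 4.57 to 5.79 on the other dosed arrays and 7.54 on vehicle replicate 1. Ugt2b10 read 11.47 (others 8.94 to 10.26) and Sult1b1 13.16 (others 11.02 to 11.74). Its lowest genes were Prg2, Epx, C2h3orf80, RT1-T24-4, Acot1, Pou2af1, RT1-N2 and Defa7. Among them the class I histocompatibility genes RT1-T24-4 and RT1-N2 differ by haplotype between animals, and RT1-T24-4 ranged from 3.40 to 10.30 in vehicle alone.

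The library ranked high in probe sets that rose at 50 mg/kg. The test of 50 mg/kg against vehicle uses none of the arrays at 0.1 mg/kg in its means but takes them into its estimate of the spread. It called 499 probe sets (1.61%), 380 higher (1.22%) and 119 lower (0.383%). Of the 380 that rose at 50 mg/kg, the library was the highest of the 5 in 244 (64.2%, beside 25.7% of all probe sets), with a median deviation of 0.23 from the median of the other 4. On replicates 2 to 5 that median deviation was -0.20, -0.04, -0.02 and 0.05. Of the 119 that fell at 50 mg/kg, it was the lowest in 62 (52.1%, beside 17.9% of all), with a median deviation of -0.18. It had 90 probe sets over 2-fold above the median of the others, and 32 of them (35.6%) rose at 50 mg/kg, as did 1.22% of all probe sets. For replicates 2 to 5 the numbers that rose were 1 of 1319, 0 of 26, 0 of 45 and 1 of 77. The library was singled out for induced genes such as Cyp1a1, which are among the 380, so these shares are a description.

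Array number moved with these groups. Of the early arrays (numbers 1 to 8 in the array names, which the labels do not explain), 4 are at 50 mg/kg, 1 is at 15 mg/kg, 1 is in vehicle and 1, this library, is at 0.1 mg/kg. In an alternative chosen after seeing the data, with a block for array number (early or late), limma called 52 probe sets as higher at 50 mg/kg than in vehicle (0.168%), and the library was the highest of its group in 37 of them (71.2%). With the block and the library left out of the fit, 121 were called as higher (0.39%), of which 114 were among the 380. The library was the highest of its group in 99 of the 121 (81.8%), with a median deviation of 0.47, while replicates 2 to 5 had median deviations of -0.22, -0.07, -0.05 and 0.07. The block rests on 1 early vehicle array and 1 late array at 50 mg/kg.

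**Figure D5:**
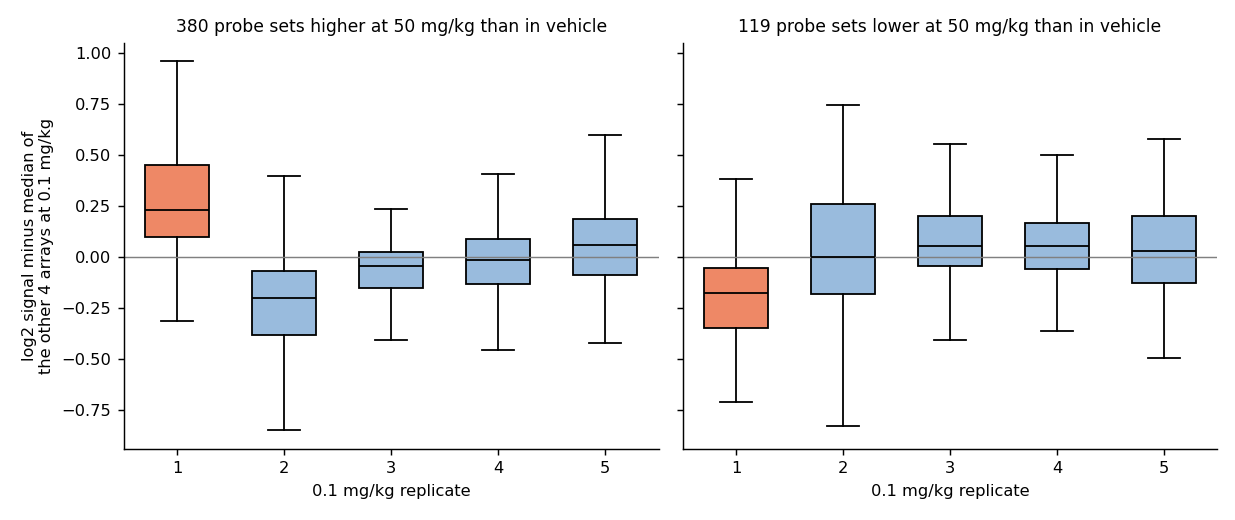
For each array at 0.1 mg/kg (horizontal axis), the log2 signal minus the median of the other 4 arrays of the group (vertical axis), over the probe sets that passed at 50 mg/kg against vehicle on the higher (left) and the lower side (right). Boxes show the quartiles and the median, whiskers the range without outlying values, which are not drawn; replicate 1 (orange) has a median of 0.23 on the left and -0.18 on the right.

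By gene group, that library was the highest of its group in 5 of 8 AhR targets (median deviation 1.13), in 16 of 21 CAR and PXR targets (1.19), in 15 of 19 conjugating enzymes (0.43) and in 14 of 25 NRF2 targets (0.53). It was the highest in 23.3% of all genes, with a median deviation of 0.01. The library was singled out for Cyp1a1 and other induced genes, which these lists hold, so the counts are a description. Some genes, such as Nqo1 and Gstm1, stand in more than 1 list. The NADPH donor enzyme Por read 10.60 (others 9.16 to 9.90) and the epoxide hydrolase Ephx1 12.72 (others 11.09 to 11.68). Alas1, the first enzyme of haem synthesis, read 11.89 (others 10.46 to 11.04). Outside xenobiotic response, the cholesterol synthesis list deviated by 0.22 and the lipogenesis list by 0.19. The thyroid list deviated by 0.01, the fetal hepatocyte list by 0.01, the interferon list by 0.05 and the cell cycle list by -0.03.

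The 0.1 mg/kg arrays were also tested directly against the higher doses, which uses no vehicle array. The limma test of 50 against 0.1 mg/kg called 91 of 31042 probe sets (0.293%), of which 74 rose (0.238%) and 17 fell (0.0548%). They stand for 67 genes (0.471%). Cyp1a1 was 34.0-fold higher at 50 mg/kg (5.09, SE 0.864, limma adjusted p = 0.0181), Cyp2a3 9.85-fold (3.30, SE 0.553, limma adjusted p = 0.0171) and Cyp2c7 8.55-fold (3.10, SE 0.462, limma adjusted p = 0.00731). Cyp2c7 read 6.97 to 8.94 at 50 mg/kg, so that replicate 1 at 0.1 mg/kg (7.06) lay within that range. Alas1 rose 2.68-fold, Ugt2b34l1 2.40-fold, the mitochondrial protein Mgarp 2.35-fold, Tnfaip8l1 2.15-fold and Usp18, an interferon-induced protease, 2.14-fold. Snx10, Iars2, Abcc2, Ugt2a1 and Mmgt1 rose 1.92-fold to 2.05-fold.

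On the lower side Ccnd1 fell 2.74-fold against 0.1 mg/kg (-1.45, SE 0.176, limma adjusted p = 0.00294). All 5 arrays at 50 mg/kg read 7.96 to 8.73 and all 5 at 0.1 mg/kg 9.65 to 10.25. The early-response gene Ier2 fell 1.69-fold, the fetal growth factor-binding protein Igfbp2 1.53-fold, Pbx2 1.44-fold, Mfge8 1.43-fold and Rnase4 1.37-fold.

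Without the library labelled 0.1 mg/kg replicate 1, 243 probe sets (0.783%) passed at 50 against 0.1 mg/kg, of which 184 rose (0.593%) and 59 fell (0.19%). Of these, 90 were among the 91 (98.9% of the 91 and 37% of the 243). Cyp1a1 was then 80.2-fold higher, Cyp1a2 56.6-fold and Nqo1 5.40-fold, against 34.0-fold, 26.2-fold and 4.09-fold with the library. These larger folds follow from leaving out an array that was chosen for its high values in such genes, and are given as a description. The count moved with most of the single arrays left out. It was 20, 55, 31, 22 and 87 without replicates 1 to 5 at 50 mg/kg, and 57, 20, 22 and 36 without replicates 2 to 5 at 0.1 mg/kg. With the block for array number it was 3, and with the array number as a covariate 26. Of the arrays compared, 4 at 50 mg/kg and 1 at 0.1 mg/kg were early, which leaves too few for a test within either set.

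At 15 mg/kg 0 probe sets passed against 0.1 mg/kg in limma (0%), and 1684 had an unadjusted p under 0.05. Without the library labelled 0.1 mg/kg replicate 1, 9 passed (0.029%), of which 8 rose (0.0258%) and 1 fell (0.00322%). The library was left out for its high values in the same kind of gene, so these calls depend on that choice and are no independent evidence of a difference. The genes were Cyp1a1 (52.4-fold), Cyp1a2 (14.6-fold), Cyp2c7 (5.85-fold), Cyp2c6v1 (3.82-fold), Alas1 (1.95-fold), Ugt2b1 (1.74-fold) and Cyp3a23-3a1 (1.54-fold), all higher at 15 mg/kg. A probe set shared by several genes (3.15-fold higher) and another without a gene symbol (1.66-fold lower) made up the rest. Cyp1a1 read 13.16 to 14.17 at 15 mg/kg, 7.19 to 8.42 on replicates 2 to 5 at 0.1 mg/kg and 14.06 on replicate 1.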

How the data were processed

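Liver RNA of 19 arrays was measured, and the 10 arrays at 0.1 mg/kg and in vehicle were compared. The deposited values are log2 signals, which per the submitters' processing notes come from RMA (robust multi-array average, version not given in the sources used here). This method corrects background, normalizes arrays to one distribution and joins the probes of each probe set. Differences are compressed near both ends of the signal range, and array medians lay between 6.05 and 6.16.

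After 57 control probe sets were left out, 31042 were tested. Per the platform annotation, 20826 had 1 gene symbol, 436 several and 9780 none, and 20758 took the symbol of a matched RefSeq gene. Each gene is represented by the probe set with 1 symbol and the highest mean over the 19 arrays.

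Per the labels, the submitters used R/maanova, with a false discovery rate of 0.05, in place of which limma 3.58.1 (R 4.3.3) was used here. The model had 1 mean per group and took in all 19 arrays (15 residual and 2.78 prior degrees of freedom), two-sided, with p-values adjusted over the whole array by Benjamini and Hochberg and a threshold of 0.05. The fit was tested on simulated data. Cyp1a1 was also tested by exact permutation.

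Genes were named by rule. Since fewer than 5 genes passed, the rule took the 10 genes with the smallest unadjusted p (5 in each fit without doubted arrays), the 3 pathway list members with the largest difference, the cell type markers with the highest level, the genes highest (15) and lowest (8) on 0.1 mg/kg replicate 1, the largest changes at 50 against 0.1 mg/kg (12 rises and 6 falls among groups that did not overlap) and a panel of 24 genes. Other members of a list, and the genes called at 15 against 0.1 mg/kg, were named after their values were seen. The comparison, the 22 pathway lists, the 19 cell type lists and the panel were chosen with earlier results of these data known. Lists are described by counts and medians and were not tested. Alternatives were a filter, other variance settings, blocks, scalings, array weights and arrays left out.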

Additional observations from a re-analysis of the deposited data

Results flagged for a closer look

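In a group of 5 arrays, an array was picked out where its gap to the nearest other array was large beside the range of the group (Dixon's criterion). This held for 22 of 86 groups of values looked at, where chance alone gives about 1 in 20 groups. The genes and lists were chosen with earlier results of these data known, so that rate is no test of the count. Values from the same array are not independent of each other.

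The library labelled 0.1 mg/kg replicate 1 stood above the other 4 arrays of its group in Cyp1a1 (14.06, others 7.19 to 8.42), Cyp1a2 (13.80, others 7.63 to 8.83), Nqo1 (10.64, others 8.55 to 8.75), Cyp2c7 (7.06, others 4.17 to 5.00) and Cyp3a23-3a1 (14.06, others 13.36 to 13.52). It also did so in the carboxylesterase Ces2c (7.37, others 5.97 to 6.35) and the glutathione transferase Gstm1 (12.20, others 10.90 to 11.23).

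The array labelled 0.1 mg/kg replicate 2 stood apart in the mean levels of kidney (9.08, others 4.31 to 4.34), exocrine pancreas (8.12, others 4.98 to 5.07), bile duct (8.06, others 6.08 to 6.15) and smooth muscle and mesothelium transcripts (7.74, others 5.49 to 5.85). It was low in T and NK cell transcripts (4.72, others 5.12 to 5.26) and in Xist, the transcript of an inactive X chromosome (4.02, others 4.24 to 4.29). Its near copy, vehicle replicate 2, stood apart in kidney (9.13, others 4.17 to 4.35) and bile duct transcripts (8.05, others 5.97 to 6.42), in Nqo1 (8.55, others 8.12 to 8.16), in Cyp7a1 (6.51, others 8.04 to 8.63) and in Serpina7 (12.06, others 12.70 to 12.87).

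Of the remaining arrays, vehicle replicate 1 was high in hepatocyte transcripts (14.27, others 14.20 to 14.22) and low in neutrophil transcripts (10.17, others 10.98 to 11.07). The hepatocyte gap is small and lies near the top of the signal range. Vehicle replicate 5 was high in Gstm1 (11.37, others 10.82 to 10.98), and 0.1 mg/kg replicate 3 was high in megakaryocyte transcripts (8.69, others 8.24 to 8.35). The causes were not tested.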

How the results depend on the processing

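At 0.1 mg/kg against vehicle, 0 probe sets passed in limma in all 25 alternatives, with 213 (filter at the median level) to 3065 (without 0.1 mg/kg replicate 2) at an unadjusted p under 0.05. Late arrays only, and the fit without replicates 1 and 2 of both groups, were chosen after seeing the data. Of 162 named genes, 98 kept the sign of their difference in every alternative and 64 did not, and none had an adjusted p under 0.05. For Cyp1a1 the exact permutation p ran from 0.0635 to 0.627.

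At 50 against 0.1 mg/kg the count of 91 became 147 with the filter (fewer probe sets tested), 55 without variance shrinkage, 2 with the compared groups alone (fewer samples), 3 with a block for early and late arrays, 26 with the array number as a covariate, 524 with array weights and 160 without 0.1 mg/kg replicates 1 and 2. Leaving out each array in turn gave 20 to 243. At 15 against 0.1 mg/kg the count of 0 became 11 without 0.1 mg/kg replicates 1 and 2, and ran from 0 to 9 with each array left out. At 50 mg/kg against vehicle the count of 499 became 57 with that block and 138 with the block and without 0.1 mg/kg replicate 1, both chosen after seeing the data. The brackets only describe the settings, and the causes of these changes in count were not tested.

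Same-numbered arrays at 0.1 mg/kg and in vehicle had correlated deviations of 0.05, 0.89, 0.32, 0.36 and 0.26 for replicates 1 to 5, and 2 of the 5 (replicates 2 and 4) correlated best with their own number, so the numbers were not taken as pairs. With a replicate block the counts were 0 at 0.1 mg/kg against vehicle (1295 unadjusted), 0 at 50 against 0.1 mg/kg and 0 at 15 against 0.1 mg/kg, and the Cyp1a1 difference had an exact sign-flip p of 0.438 (smallest possible 0.0625).

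The number of arrays limits the precision, and transcripts near the floor of the signal range show small differences.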
